A study of Mus musculus with 9 samples.

Results

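The genes that supply acetyl-CoA and that write, erase or read histone acetylation were compared between control and ketolysis-deficient CD8+ T cells. The set has 42 genes, named from their functions and found by symbol among the 55471 gene identifiers of the count files. It holds 5 acetyl-CoA enzymes and carriers, 16 acetyltransferases and their partner subunits, 9 zinc-dependent deacetylases, 7 sirtuins and 5 bromodomain proteins. All 42 matched 1 identifier each, and 41 passed the filter on low counts and were tested. Hdac9 was the member left out.

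Polyadenylated RNA was sequenced from mouse CD8+ T cells carrying OT-I, a transgenic T cell receptor for an ovalbumin peptide. The control group (n = 4) had intact Bdh1 and an shRNA against firefly luciferase (shCtrl), and the DKO group (n = 5) was Bdh1-KO with an shRNA against Oxct1 (shOxct1). Both groups were activated in culture with antibodies to CD3ε and CD28 and IL-2, received an Ametrine-marked shRNA construct, and were transferred into C57BL/6 hosts of the other CD45 type, which keep their own T cells. The hosts were infected with LmOVA, a Listeria strain that expresses ovalbumin, and the transferred cells were sorted again from the spleen on day 7. Control cells thus carried a transgenic receptor and an shRNA construct too, and were not unmanipulated cells. The labels say neither whether the Bdh1 knockout is restricted to T cells, nor whether the replicates come from separate animals. The p-values therefore measure the spread between these libraries, which may be partly technical.

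Acetyl-CoA is the donor of every acetyl group placed on histones. In the cytosol and nucleus it is made from citrate by ATP citrate lyase (Acly) and from acetate by Acss2, while ketone bodies and pyruvate give acetyl-CoA inside mitochondria. Acetyltransferases move the acetyl group to lysines of histone tails, zinc-dependent deacetylases and sirtuins take it off, and bromodomain proteins bind the acetylated lysine. In activated T cells the supply of acetyl-CoA is known to affect histone acetylation at effector genes such as Ifng. Transcript counts measure neither acetyl-CoA, nor enzyme activity, nor histone acetylation.

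Library depth in genes ran from 45205993 to 59853080 counts. Both targeted transcripts were lower in DKO. Oxct1, which activates acetoacetate in mitochondria, stood in control at 63.2 ± 5.73 CPM (counts scaled to the TMM-corrected library total; SD, n = 4) and in DKO at 5.16 ± 0.37 (n = 5). Bdh1, which oxidises beta-hydroxybutyrate, was at 30.5 ± 4.16 CPM and 10.6 ± 1.24 CPM (log2 fold change -3.61 for Oxct1 and -1.52 for Bdh1, with adjusted p of 4.58e-09 and 0.000136 by edgeR's quasi-likelihood test). All 8 listed CD8 T cell markers were above 1 CPM; their summed level was 9211 to 12325 CPM in control and 8979 to 9667 in DKO (exact permutation test over 126 relabellings, two-sided p = 0.0476). The top value was control 1; without it the control range ended at 10556 CPM, the means were 9930 in control and 9357 in DKO, and the difference was not past 0.05 (exact p = 0.107 over 56 relabellings). Of 12 myeloid genes 8 were above 1 CPM, with sums of 166 to 201 CPM in control and 117 to 127 in DKO (exact p = 0.00794; 0.0179 without control 1). Itgam, Ctss and Cd68, which T cells can also express, made up most of that sum. Of the other myeloid genes, Lyz2 and Csf1r averaged 2.43 and 1.84 CPM in control and 5.85 and 2.37 CPM in DKO. Mpeg1, S100a8 and S100a9 were also higher in DKO, each under 1 CPM. Tyrobp, Fcer1g, Adgre1 and Cd14 were lower in DKO. They averaged 3.19, 1.74, 1.04 and 0.359 CPM in control and 2.4, 1.63, 1.01 and 0.334 CPM in DKO. Pax5 was at 0 in all libraries, and B cell genes summed to 180 to 265 CPM in control and 188 to 210 in DKO, nearly all of it Ighm. CD4 T cell genes summed to 30.7 to 39.3 CPM in control and 34.6 to 46.6 in DKO, with Cd4 itself at 0.172 and 0.344 CPM, and erythroid and platelet genes to 6.88 to 36.1 and 10.3 to 35.7 CPM. Cell cycle genes summed to 998 to 1180 CPM in control and 1318 to 2040 in DKO (exact p = 0.0159; 0.0357 without control 1). The part of the cell cycle and myeloid differences in the members' values was not tested. In a bulk sample, fewer cells of a type and less RNA per cell cannot be told apart.

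Control replicates 1 and 3 stood apart from the other libraries. On the first principal component of log2 CPM (28.7% of the variance) control 1 lay at -79.1 and the other libraries between -7.25 and 23.5. On the second (21.8%) control 3 lay at -70.2 and the others between -5.59 and 20.2. Because control 1 was the lowest of the 9 libraries for 20 of the 41 tested members, many values are also given without it.

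For the members with an unadjusted p under 0.05 that have a single start in the table, the bases just before the gene are shown, from RefSeq promoters on GRCm38.p6. They are 3 of the 5 members with an unadjusted p under 0.05, and RNA counts do not say which of these letters is used. Of the 42 members, 36 are in that table. Capitals mark 3 motifs, searched on both strands. The first is the GC box, with the letters GGGCGG. The second is the box named after its letters CCAAT. The third is the ETS core, spelled CCGGAAG. No matches overlap in the stretches printed. Sequences run 5′ to 3′ on the strand of the gene. That of Acss2 is at chr2:155517793-155517947 on the plus strand, that of Kat2a at chr11:100712468-100712717 on the minus strand and that of Kat7 at chr11:95310247-95310496 on the minus strand.
Acss2: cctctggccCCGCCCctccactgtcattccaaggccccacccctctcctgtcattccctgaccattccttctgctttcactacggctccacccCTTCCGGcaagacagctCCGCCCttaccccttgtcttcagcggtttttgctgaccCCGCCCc
Kat2a: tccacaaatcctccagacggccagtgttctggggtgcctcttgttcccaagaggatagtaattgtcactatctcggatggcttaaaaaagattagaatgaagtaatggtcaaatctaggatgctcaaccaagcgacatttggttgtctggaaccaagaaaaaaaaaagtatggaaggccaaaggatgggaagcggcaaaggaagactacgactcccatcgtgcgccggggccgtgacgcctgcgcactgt
Kat7: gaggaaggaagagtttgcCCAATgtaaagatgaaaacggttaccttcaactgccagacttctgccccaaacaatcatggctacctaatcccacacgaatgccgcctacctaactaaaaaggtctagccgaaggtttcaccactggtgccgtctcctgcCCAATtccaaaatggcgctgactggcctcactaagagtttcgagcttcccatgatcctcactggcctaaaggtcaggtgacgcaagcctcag
In Acss2 the 155 bases printed hold 3 GC boxes and 1 ETS core, and the 250 bases before its RefSeq start are 64% G or C. In Kat7 the 250 bases hold 2 CCAAT boxes and no GC box, at 50.8% G or C, and in Kat2a they hold none of the 3 motifs, at 48.8%. Over all 32851 promoters of the table, the median of the 250 bases is 52.4% G or C. A GC box was in 30 of the 36 members' windows and in 32.7% of all windows of that length. A CCAAT box was in 13 of 36 against 33.8%, and an ETS core in 7 of 36 against 6.91%. The background here is every promoter of the table, whether or not its gene was tested. A share among tested genes alone is not given, so a difference particular to the members cannot be read from these counts. These matches describe the letters only.

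No member changed past the threshold between DKO and control. In the quasi-likelihood test of edgeR, adjusted over all 14918 genes tested by the Benjamini-Hochberg method, 0 of 41 members had an adjusted p under 0.05, while 2.83% of all tested genes did. The lowest adjusted p among the members was 0.242. At an unadjusted p under 0.05, 5 of 41 members (12.2%) were counted, 4 higher in DKO and 1 lower, beside 16.0% of all tested genes (7.74% higher and 8.25% lower). The members' share was thus not above the background. DESeq2's Wald test and limma-voom also gave adjusted calls for 0 members, with 7 (17.1%) and 8 (19.5%) at an unadjusted p under 0.05, beside 17.7% and 21.6% of all genes in the same fits. Without control replicates 1 and 3 together, edgeR called 0 members, with 5 (11.9%) at an unadjusted p under 0.05, beside 17.4% of all genes.

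Differences were small on the log2 scale. The median log2 fold change (DKO minus control) over the 41 members was 0.07, and the median of its absolute value was 0.13, beside -0.01 and 0.18 over all genes tested. Values ran from -0.46 for Hdac11 to 0.37 for Brpf1. The 95% interval of the fold change lay wholly within 1.5-fold in either direction for 33 of 41 members (80.5%, beside 50.7% of all genes tested), and within 2-fold for 40 (97.6% beside 74.1%). Hdac11 was the exception at 2-fold. The median SE of the log2 fold change was 0.11 over the members, beside 0.17 over all genes tested.

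**Figure D1:**
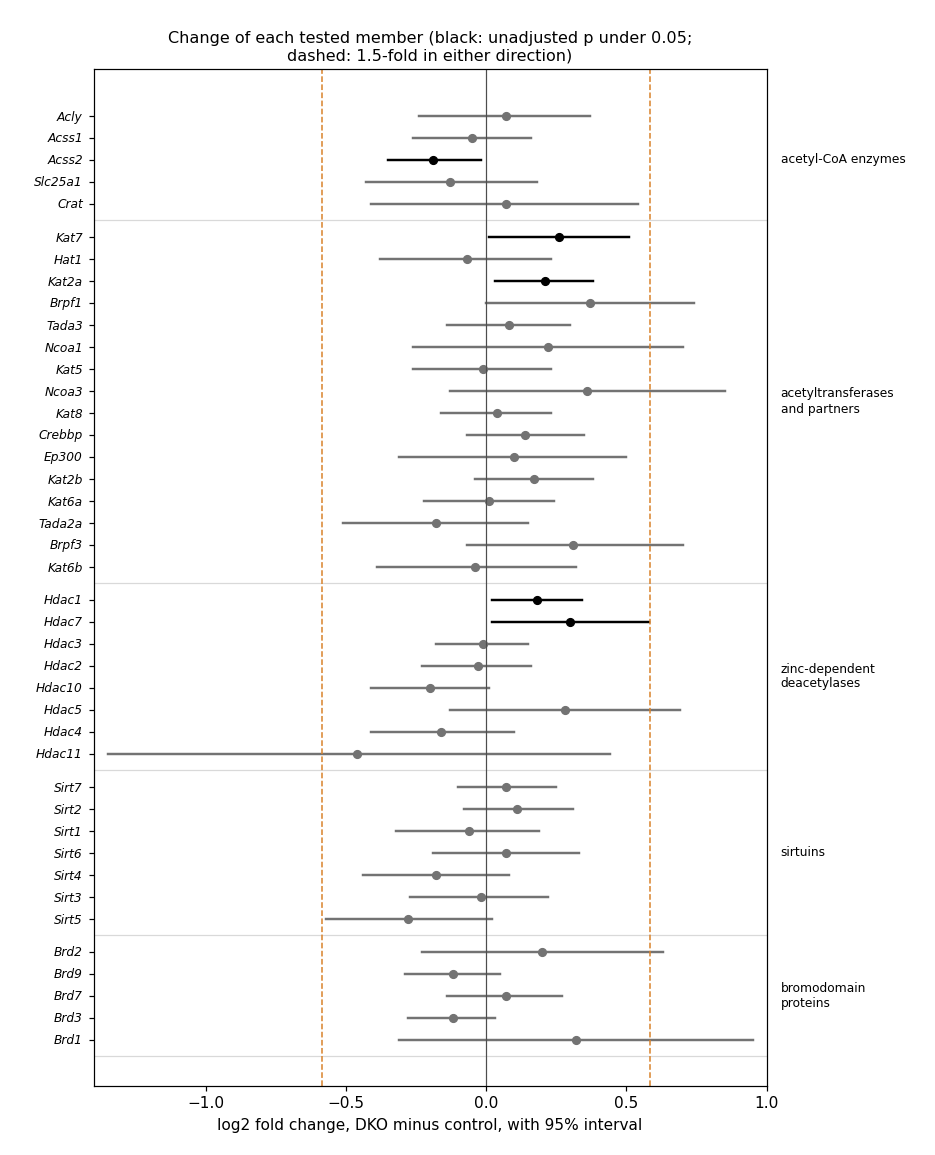
Log2 fold change of each tested member (x axis, DKO minus control, edgeR) with its 95% interval, by class (y axis); black marks an unadjusted p under 0.05 and dashed lines mark 1.5-fold. Intervals of 33 of 41 members stay between the dashed lines, and the interval of Hdac11 is the widest.

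Acss2, the enzyme that makes acetyl-CoA from acetate outside mitochondria, was the one member with an unadjusted p under 0.05 that lay lower in DKO (ENSMUSG00000027605, chromosome 2, 155517948 to 155585724 on the plus strand of GRCm38). In control it was at 298.0, 328.6, 321.0 and 331.1 CPM (replicates 1 to 4). In DKO it was at 297.9, 269.8, 293.1, 250.7 and 292.6 CPM (replicates 1 to 5). The groups did not overlap, though control 1 and DKO 1 were nearly equal. The fold change was 0.88 (95% interval 0.78 to 0.99; log2 fold change -0.19, SE 0.08), with an adjusted p of 0.254 by edgeR's quasi-likelihood test. Without control 1 the log2 fold change was -0.23 (adjusted p 0.0605, edgeR). With 1 surrogate variable as a covariate it was -0.21 with an adjusted p of 0.0467 (edgeR), which was the one alternative in which any member passed the threshold, and over all alternatives run on Acss2 the log2 fold change ran from -0.28 to -0.15. Genes on the opposite strand overlap Acss2: the sum of its strand counts was 1.29 times the unstranded count, which leaves out reads in the overlap, so its level is uncertain.

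Acly, which makes acetyl-CoA from citrate, was the most abundant of the acetyl-CoA genes per kilobase of union exon length. It stood at 277.9, 453.9, 443.6 and 470.2 CPM in control. The DKO libraries were at 444.1, 445.7, 426.3, 376.6 and 461.2 CPM. Control 1 was far below all the other libraries, and the remaining controls and the DKO libraries overlapped. The log2 fold change was 0.07 (SE 0.14, interval -0.24 to 0.37), and -0.09 without control 1. Its sign thus rested on 1 library.

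The other 3 acetyl-CoA genes overlapped between groups. Acss1, the mitochondrial counterpart of Acss2, stood at 206 ± 24.2 CPM in the 4 controls and 199 ± 15.6 in the 5 DKO libraries. The citrate carrier Slc25a1, which exports citrate from mitochondria for Acly, was at 26.6 ± 5.39 and 24.4 ± 2.72 CPM. Crat, which moves acetyl groups between CoA and carnitine, was at 10.6 ± 3.73 and 11.1 ± 1.95 CPM, with the spread among controls (6.769 to 15.72) wider than the whole DKO range (9.51 to 14.5). Their log2 fold changes were -0.05, -0.13 and 0.07, and those of Acss1 and Crat were -0.14 and -0.11 without control 1. For Slc25a1 the value ran from -0.22 without control 3 to -0.01 without control 4.

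Per kilobase of exon, computed here as CPM over exon length (RPKM), the order in this class was Acly, Acss1, Acss2, Slc25a1 and Crat in all 9 libraries. Control means were 77.9 ± 17.0, 49.9 ± 5.86, 31.5 ± 1.48, 12.3 ± 2.49 and 1.97 ± 0.692 RPKM. The class summed to 174 ± 24.4 RPKM in control and 171 ± 10.3 in DKO, and Acly gave 44.9% and 47.7% of it. Without control 1, which was at 138 RPKM, the control sum was 185 ± 8.04. The order and shares depend on union exon length, which was 10163 bases for Acss2, 5279 for Acly and 4128 for Acss1. Annotated bases that the cells' transcripts lack would make a gene's RPKM too low. By CPM, Acss2 lay above Acss1 (control means 320 and 206), so the place of Acss2 is uncertain. The ratio of Acly to Acss2 per kilobase was 1.8, 2.66, 2.66 and 2.73 in control. In DKO it was 2.87, 3.18, 2.8, 2.89 and 3.03. The ratios did not overlap, with 2.73 the highest in control and 2.8 the lowest in DKO. This pair was picked with the values known and was not tested. Of the other pair ratios computed, all but Hdac5 over Hdac4 overlapped between groups.

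**Figure D2:**
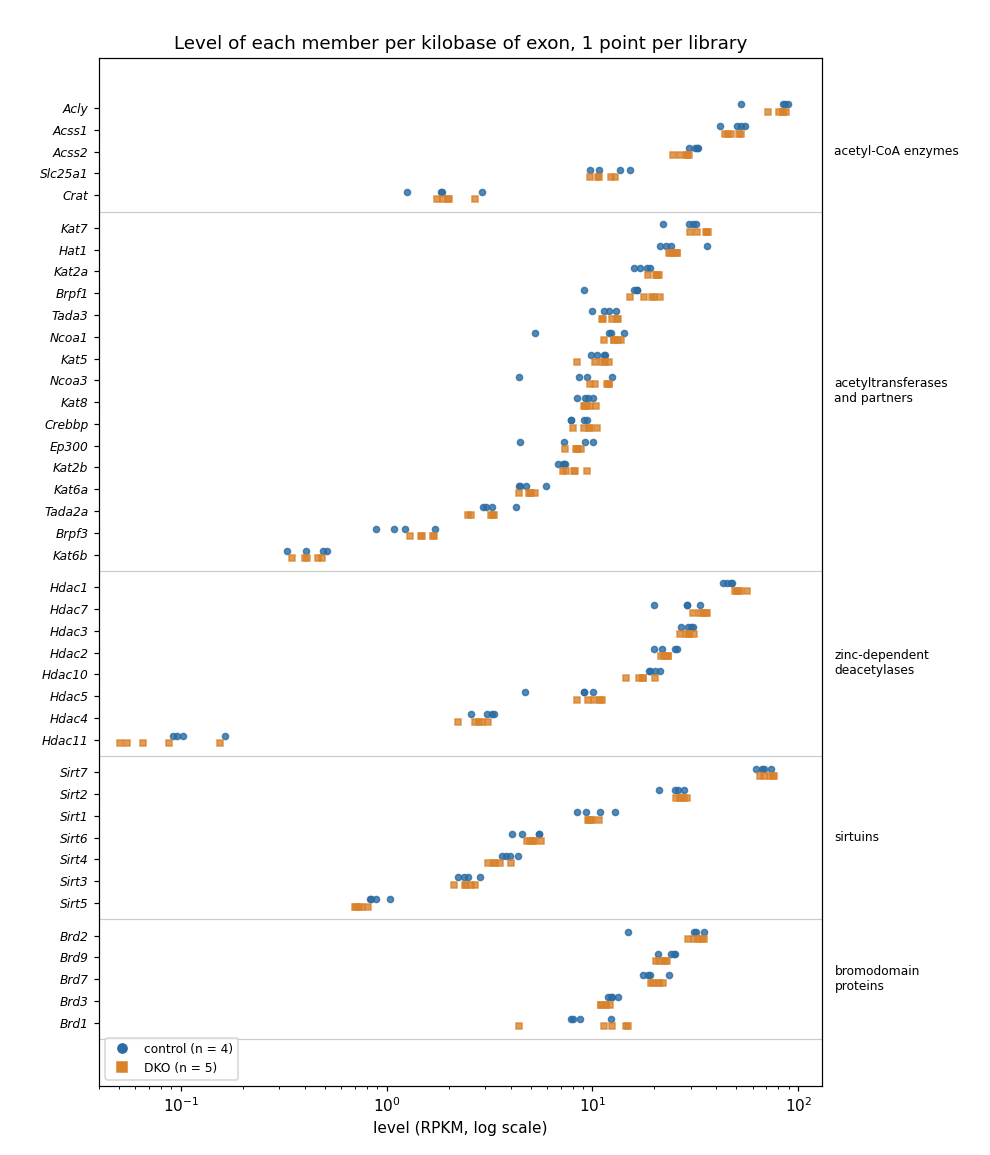
Level of each tested member in RPKM (x axis, log scale), 1 point per library, control circles and DKO squares, by class and in order of level (y axis). The groups overlap for most members, and levels span from Hdac11 at the low end to Acly and Sirt7 at the high end.

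Among the acetyltransferases and their partners, 12 of 16 had a value above 0 for the log2 fold change and 4 below. Their median was 0.12, and 0 passed the adjusted threshold. Over all 14918 genes tested, 7246 lay above 0 and 7672 below, with a median of -0.01. Control 1 was the lowest library for 11 of these 16 members (68.8%, beside 28.9% of all genes tested). Kat2a, the catalytic subunit of the SAGA and ATAC complexes, was at 55.47, 65.9, 59.08 and 64.09 CPM in control. DKO values were 72.94, 71.95, 71.23, 64.77 and 71.53 CPM. DKO 4 alone fell within the control range, and the other DKO libraries lay above it. The fold change was 1.15 (interval 1.02 to 1.3, adjusted p 0.242, edgeR), the lowest adjusted p of any member. Without control 1 the log2 fold change went from 0.21 to 0.15.

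Kat7, which acetylates histones H3 and H4 with the Brpf and Jade scaffolds, was the most abundant acetyltransferase per kilobase. It was at 121.3, 170.5, 162.4 and 175.5 CPM in control. In DKO its values were 198.1, 178.7, 201.9, 164.6 and 198.7 CPM. DKO 4 again lay inside the control range, and control 1 was well below the other controls. The fold change was 1.2 (interval 1.01 to 1.42, adjusted p 0.292, edgeR). The log2 fold change of 0.26 went to 0.14 without control 1, where its unadjusted p was no longer under 0.05.

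Brpf1, the scaffold of the Kat6a, Kat6b and Kat7 complexes, had the highest fold change of all members at 1.29 (interval 1.00 to 1.67, adjusted p 0.314, edgeR). It was at 61.47, 111.7, 108.5 and 112.0 CPM in control. Across DKO it was at 135.5, 121.3, 132.7, 102.8 and 143.8 CPM. All DKO libraries but DKO 4 lay above every control, and DKO 4 lay below all controls but control 1. The log2 fold change of 0.37 was 0.19 without control 1. Its paralogue Brpf3 was at 10.6 ± 3.05 CPM in control and 13.2 ± 1.44 in DKO, and Brpf1 exceeded it per kilobase by 9.32 to 15.1 times in control and 8.88 to 15 times in DKO.

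The paired coactivators Ep300 and Crebbp, which acetylate H3 at enhancers, had similar levels. Ep300 was at 63.66, 130.8, 143.2 and 103.3 CPM in control. In DKO it was at 119.7, 118.3, 121.1, 125.0 and 104.7 CPM. All DKO libraries lay within the control range, of which control 1 was the low end. The log2 fold change of Ep300 was 0.10, and -0.11 without control 1. Crebbp was at 116 ± 10.9 CPM in control and 127 ± 12.4 in DKO (log2 fold change 0.14, SE 0.10, and 0.08 without control 1). Per kilobase, Ep300 over Crebbp was 0.567 in control 1, 0.916 to 1.11 in the other controls and 0.787 to 0.918 in DKO.

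Kat2b, the paralogue of Kat2a, was at 34.9 ± 1.17 CPM in control and 39.2 ± 4.33 in DKO (log2 fold change 0.17, adjusted p 0.422, edgeR). Kat2a exceeded it per kilobase by 2.34 to 2.57 times in control and 2.19 to 2.93 times in DKO. Kat5, the enzyme of the NuA4 complex, was at 37.8 ± 2.77 and 37.5 ± 5.09 CPM, and Kat8, which acetylates histone H4, at 26.9 ± 1.95 and 27.6 ± 1.52 CPM. For Kat5 the strand sum was 1.37 times the unstranded count. Kat6a and Kat6b, partners of Brpf1, were at 44.8 ± 6.76 and 7.28 ± 1.40 CPM in control and 45 ± 2.91 and 7.09 ± 0.925 in DKO, and Kat6b was the lowest acetyltransferase per kilobase.

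Hat1, which acetylates newly made histone H4 before it enters chromatin, went the other way from most members in control 1. Its controls were at 104.1, 69.67, 66.05 and 61.56 CPM. The DKO libraries were at 67.92, 69.73, 71.82, 74.52 and 74.32 CPM. Control 1 was the highest of the 9 libraries, and the other 8 overlapped. The log2 fold change was -0.07, and 0.11 without control 1.

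Nuclear receptor coactivators Ncoa1 and Ncoa3 had the widest control spread of the class relative to their means. Ncoa1 was at 44.97 CPM in control 1 and 103.5 to 121.9 in the other controls, against 97.2 to 117.5 in DKO. Ncoa3 was at 34.87 CPM in control 1 and 67.55 to 97.93 in the others, against 77.19 to 94.77 in DKO. Their log2 fold changes of 0.22 and 0.36 became -0.02 and 0.13 without control 1. The adaptor Tada3, shared by SAGA and ATAC, was at 45 ± 4.92 and 47.6 ± 4.02 CPM, and Tada2a, an ATAC subunit, at 10 ± 1.75 and 8.84 ± 1.24 CPM.

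As a class the acetyltransferases and partners summed to 151, 179, 182 and 172 RPKM in control and 193, 187, 196, 177 and 196 in DKO. DKO 4 lay within the control range and the other DKO libraries above it. The control mean was 171 ± 13.9 RPKM, or 178 ± 5.12 without control 1, and the DKO mean 190 ± 8.07. Kat7, Hat1 and Kat2a led the order per kilobase with medians of 31.7, 24.2 and 18.9 RPKM over the 9 libraries. Kat7 and Hat1 overlapped in range and lay above Kat2a. From Kat2a down to Kat2b, neighbours in the order overlapped, and Kat6a, Tada2a, Brpf3 and Kat6b followed, each below the one before it in all 9 libraries.

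**Figure D3:**
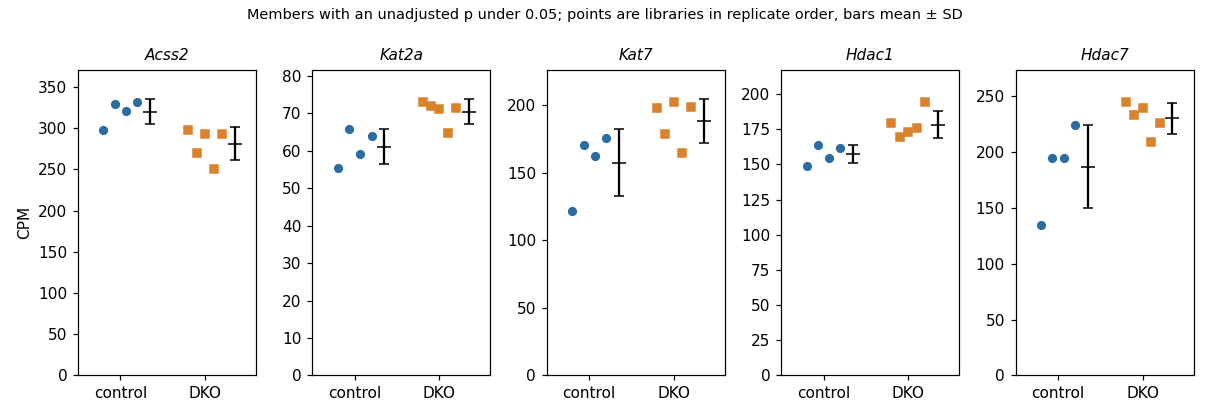
CPM of the 5 members with an unadjusted p under 0.05 (y axis, from 0), 1 point per library in replicate order, with mean ± SD beside each group (control n = 4, DKO n = 5). Acss2 and Hdac1 do not overlap between groups; Kat2a, Kat7 and Hdac7 do.

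Hdac1, a catalytic subunit of the Sin3, NuRD and CoREST complexes, was the most abundant deacetylase per kilobase (ENSMUSG00000028800, chromosome 4, 129516104 to 129542713 on the minus strand). In control it was at 149.2, 163.8, 154.8 and 161.9 CPM. The DKO libraries were at 179.3, 169.6, 172.9, 175.9 and 194.1 CPM. Every DKO library lay above every control. The fold change was 1.13 (interval 1.02 to 1.26; log2 fold change 0.18, SE 0.07), with an adjusted p of 0.245 by edgeR. Without control 1 the log2 fold change was 0.14. Leaving out 1 library at a time, its unadjusted p stayed under 0.05 in 6 of 9 fits, against 4 of 9 for Acss2, Kat2a and Hdac7 and 3 of 9 for Kat7.

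Groups that do not overlap in CPM were found for 3 of 41 members (7.32%) and for 8.71% of all genes tested. Hdac1 was the 1 that lay higher in DKO, where the background was 4.62%. Acss2 and Sirt5 lay lower, where the background was 4.09%, and Acss2 overlapped with DESeq2 size factors and with the strand sum. These shares were near the background.

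Hdac2, the close paralogue of Hdac1 in the same complexes, was at 115.2, 97.11, 112.7 and 88.89 CPM in control. DKO values were 100.1, 101.9, 96.83, 103.7 and 104.1 CPM. DKO lay inside the control range, and the log2 fold change was -0.03 (SE 0.09). Per kilobase, Hdac1 over Hdac2 was 1.68 to 2.37 in control and 2.16 to 2.42 in DKO. Hdac3, the enzyme of the NCoR and SMRT corepressors, was at 119 ± 7.22 and 118 ± 6.5 CPM (log2 fold change -0.01, interval -0.18 to 0.15).

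Hdac7, a class IIa deacetylase that shuttles between nucleus and cytosol and is abundant in T cells, was at 134.9, 194.4, 194.2 and 224.3 CPM in control. In DKO its values were 244.3, 232.6, 239.5, 208.9 and 225.8 CPM. DKO 4 lay below control 4 and the other DKO libraries lay above all controls. The fold change was 1.23 (interval 1.02 to 1.49, adjusted p 0.27, edgeR), and the log2 fold change of 0.30 was 0.16 without control 1. Hdac5, of the same class, was at 72.3 ± 21.1 CPM in control and 88.0 ± 9.61 in DKO (log2 fold change 0.28, and 0.08 without control 1). Hdac4, also class IIa, was at 48.4 ± 5.50 and 43.4 ± 5.31 CPM (log2 fold change -0.16, and -0.24 without control 1).

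Hdac5 over Hdac4 per kilobase was 1.83, 2.8, 2.96 and 3.01 in control. It was 3.05, 4.04, 3.82, 3.79 and 3.64 in DKO. The ratios did not overlap, with control 4 and DKO 1 the nearest, and the ratio was looked at with the values known and was not tested. Apart from Acly over Acss2, the other pair ratios computed overlapped between groups. They were Ep300 over Crebbp, Kat2a over Kat2b, Hdac1 over Hdac2, Acss2 over Acss1 and Kat6a over Kat6b. Ncoa1 over Ncoa3, Brpf1 over Brpf3 and Brd2 over Brd3 overlapped too. A background share over other gene pairs was not computed. Hdac9, the other class IIa member, had 0, 19, 0 and 0 counts in control and 0, 16, 6, 3 and 0 in DKO, which is below the filter.

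Hdac10, of class IIb and known as a polyamine deacetylase, was at 67.0 ± 3.67 CPM in control and 58.5 ± 6.77 in DKO (log2 fold change -0.20, adjusted p 0.35, edgeR). Hdac11, the class IV enzyme, was barely present at 0.437 ± 0.132 and 0.318 ± 0.164 CPM, from 10 to 36 counts a library. Its interval ran from -1.35 to 0.44 on the log2 scale, which holds a 2-fold lower level but not a 2-fold higher one, and its log2 fold change of -0.46 ran from -0.80 to -0.22 when 1 library was left out. Its strand sum was 1.79 times the unstranded count. The deacetylases summed to 157 ± 8.01 RPKM in control and 168 ± 6.72 in DKO, and Hdac1 gave 29.1% and 30.9% of that. In the order per kilobase Hdac1 stood alone at the top. Hdac7, at 20 to 36.2 RPKM, overlapped in range with Hdac3, Hdac2 and Hdac10. Hdac3 did not overlap Hdac2, while Hdac2 and Hdac10 overlapped. Hdac5, Hdac4, Hdac11 and Hdac9 followed without overlap.

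Sirtuins, which use NAD, kept the same order per kilobase by unstranded counts in all 9 libraries: Sirt7, Sirt2, Sirt1, Sirt6, Sirt4, Sirt3 and Sirt5. The place of Sirt3 below Sirt4 is uncertain, because the unstranded count leaves out Sirt3 reads that overlap genes on the opposite strand. Sirt7, a nucleolar and chromatin sirtuin, was at 349 ± 24.1 CPM in control and 368 ± 24.6 in DKO (log2 fold change 0.07, interval -0.10 to 0.25) and gave 58.7% and 59.4% of the class per kilobase. Sirt2, mainly cytosolic, was at 126 ± 14.7 and 136 ± 6.15 CPM. The nuclear Sirt1 and Sirt6 were at 55.4 ± 10.6 and 13.6 ± 1.99 CPM in control and 53.0 ± 2.48 and 14.3 ± 0.837 in DKO. By edgeR 0 of the 7 had an unadjusted p under 0.05 or an adjusted one; DESeq2's Wald test gave an unadjusted p under 0.05 to Sirt5.

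All 3 mitochondrial sirtuins had values below 0 for the log2 fold change, as did 7672 of all 14918 genes tested. The value of Sirt3 was -0.02 (interval -0.27 to 0.22), and it was above 0 without control 4 or without DKO 4. Sirt5, which removes succinyl and malonyl groups from mitochondrial proteins, was at 6.356, 5.432, 5.065 and 5.1 CPM in control. Across DKO it was at 4.943, 4.641, 4.267, 4.326 and 4.486 CPM. Every DKO library lay below every control, with control 3 and DKO 1 nearest. The fold change was 0.83 (interval 0.67 to 1.01, adjusted p 0.346, edgeR), and the log2 fold change of -0.28 was -0.21 without control 1. Sirt4 was at 9.43 ± 0.717 and 8.32 ± 0.820 CPM (log2 fold change -0.18, SE 0.12). Sirt3, the main mitochondrial deacetylase, was at 14.8 ± 1.58 and 14.6 ± 1.27 CPM, with a strand sum 1.48 times the unstranded count.

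Of the bromodomain proteins 0 had an unadjusted p under 0.05 by edgeR, and limma-voom gave one to Brd7. Brd2 and Brd3, BET proteins that bind acetylated H4, were at 221 ± 70.6 and 91.6 ± 4.40 CPM in control and 254 ± 17.8 and 84.1 ± 3.38 in DKO. Brd2 was at 116.9 CPM in control 1 and 244.3 to 273.8 in the other controls, so that its log2 fold change of 0.20 became -0.02 without it. For Brd3 the log2 fold change was -0.12 ± 0.07 (SE), at an adjusted p of 0.439 by edgeR.

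Brd9 and Brd7, subunits of SWI/SNF remodellers, were at 165 ± 13.7 and 103 ± 13.6 CPM in control and 152 ± 7.19 and 108 ± 5.84 in DKO. For Brd7 control 1 was the highest library. Its log2 fold change was 0.07, and 0.15 without control 1 (adjusted p 0.203, edgeR). Brd1, a scaffold of Kat7, was at 66.08, 103.1, 67.67 and 73.31 CPM in control. In DKO it was at 104.7, 95.58, 124.6, 37.08 and 122.6 CPM. The DKO libraries lay far apart for Brd1, with DKO 4 the lowest of all 9 libraries and DKO 3 the highest. Its log2 fold change was 0.32 (SE 0.29, interval -0.31 to 0.95). Without DKO 4 it was 0.53, with an unadjusted p under 0.05 and an adjusted p of 0.133 (edgeR), and without control 2 it was 0.49. The class summed to 93.4 ± 8.32 RPKM in control and 97.9 ± 5.85 in DKO, and to 97 ± 5.25 in control without control 1. Per kilobase Brd2, Brd9 and Brd7 overlapped in range with their neighbours, and lay above Brd3 and Brd1, which overlapped each other.

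**Figure D4:**
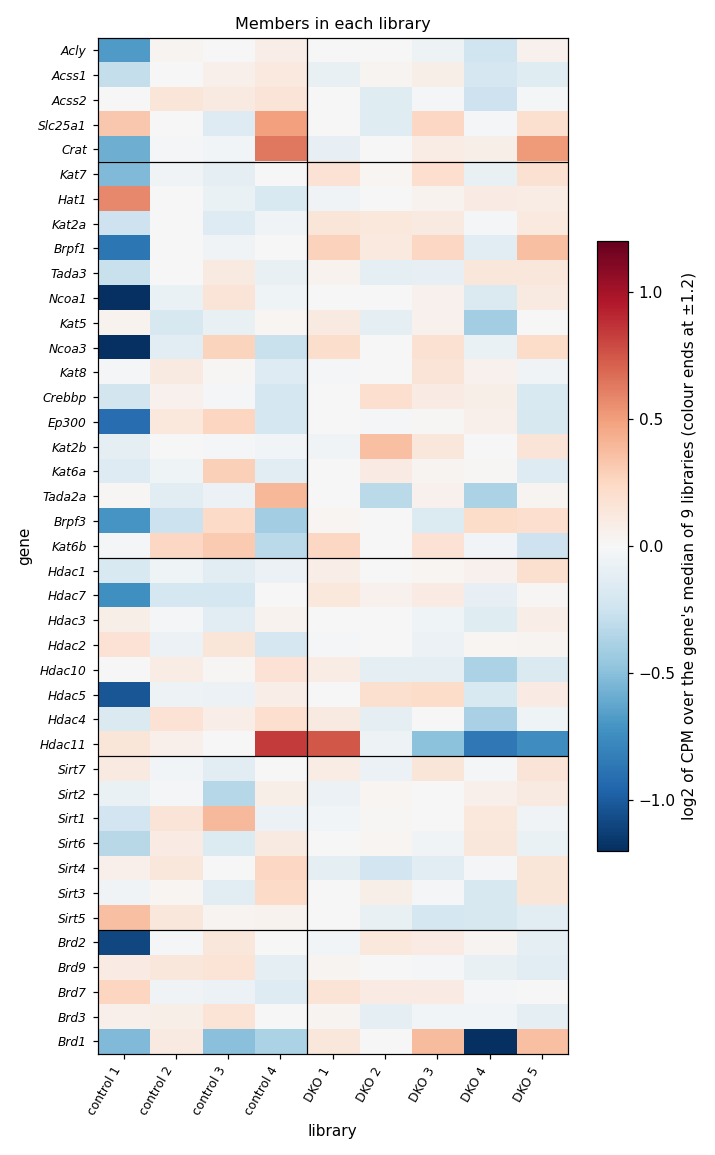
Each tested member (rows, by class) in each library (columns), as log2 of its CPM over its median of the 9 libraries, red above and blue below. Control 1 has several deep blue cells, among them Ncoa1, Ncoa3, Brd2 and Hdac5, and Brd1 in DKO 4 is as deep. Colours stop at the ends of the scale, so the deepest cells cannot be ranked by eye.

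Spread among libraries was larger in control than in DKO, and smaller in control without control 1. The median coefficient of variation of the 41 members was 13.2% in control, 8.49% in the controls other than control 1, and 7.59% in DKO. Over all genes tested it was 20.9%, 12.5% and 11.7%. Control 1 was the lowest of the 9 libraries for 48.8% of the members and 28.9% of all genes tested, and the highest for 9.76% and 28.3%. In 10 members control 1 was under 70% of the mean of the other 3 controls, against 23.6% of all genes tested, and in 1, Hat1, it was over 130%, against 24.7%.

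Exon length moved with this. Among tested genes in the shortest of 4 equal classes by union exon length, the median log2 difference of control 1 from the other controls was 0.30. It was 0.11, -0.14 and -0.35 in the following classes, and 17 of the 41 members were in the longest class. Removing a length trend from each library, an alternative added after the data were seen, left 0 members past the threshold, 9 with an unadjusted p under 0.05 (22%, beside 18.0% of all genes in that fit), and log2 fold changes of 0.33 for Brpf1, 0.25 for Hdac7, 0.22 for Kat7 and -0.28 for Acss2. The share of the length trend in the members' differences was not tested further.

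**Figure D5:**
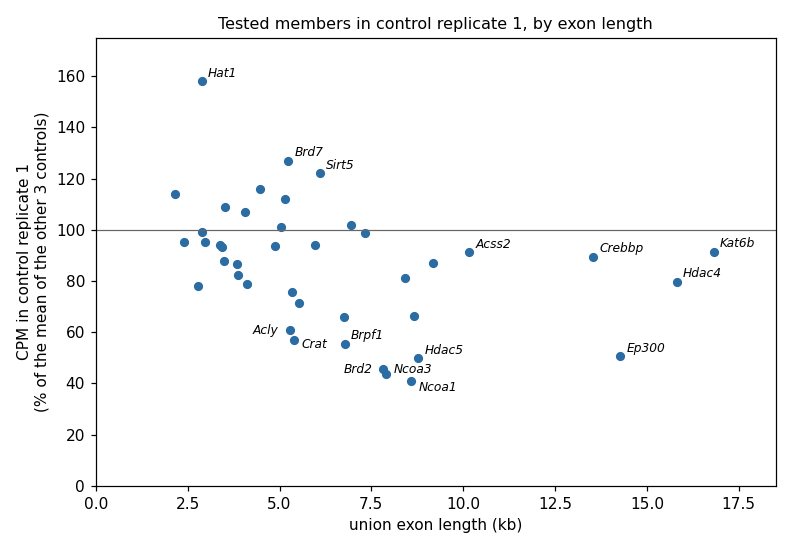
Level of each tested member in control replicate 1 as a percent of the mean of the other 3 controls (y axis) against its union exon length in kilobases (x axis). Most members of more than 5 kb lie below 100%, and Hat1 is the 1 member above 130%.

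Other genes of the pathway were read from 4 lists, and in each of them 0 genes passed the adjusted threshold by edgeR. The other tests made calls there, though 0 among the members: DESeq2's Wald test called Acot9, Pdk2, Supt3, Rcor3, Sin3b, Sp100 and Sp110, and limma-voom called Acot9, Pdk2, Chd3, Sin3b and Sp100. Of these, Chd3, a NuRD subunit, was named after its values were seen. Over all 14918 genes tested, DESeq2's Wald test called 1038 and limma-voom 996. Of 28 tested genes of mitochondrial and other acetyl-CoA supply, 1 was higher and 5 lower at an unadjusted p under 0.05. This share was 21.4%, beside 16% of all genes tested (7.74% higher and 8.25% lower). The list's median log2 fold change was -0.05. The smallest p-values were those of Acot9, a mitochondrial acyl-CoA thioesterase, at 107 ± 13.9 CPM in control and 85.1 ± 2.93 in DKO (log2 fold change -0.33, adjusted p 0.0875, edgeR), and of Pdk2, which inhibits pyruvate dehydrogenase, at 7.26 ± 2.98 and 4.27 ± 0.337 CPM (log2 fold change -0.77, adjusted p 0.125, edgeR). Acot9 did not overlap between groups and Pdk2 did. In this list 3 of 28 genes (10.7%) did not overlap, beside 8.71% of all genes tested.

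Of 53 tested subunits of acetyltransferase complexes, 1 was higher and 3 lower at an unadjusted p under 0.05. This share was 7.55%, beside 16% of all genes tested, and the list's median log2 fold change was 0.09. Supt3, a SAGA subunit, was at 8.39 ± 1.85 CPM in control and 5.83 ± 0.446 in DKO (log2 fold change -0.53, adjusted p 0.113, edgeR), and Epc1, of NuA4, at 39.1 ± 13.4 and 55.6 ± 8.75 CPM (log2 fold change 0.51, adjusted p 0.231, edgeR). Both overlapped between groups.

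Of 35 subunits of deacetylase complexes, 4 were higher and 1 lower at an unadjusted p under 0.05. This share was 14.3%, beside 16% of all genes tested, and the list's median log2 fold change was 0.07. Sin3b, the scaffold that holds Hdac1 and Hdac2 in the Sin3 complex, was at 155.3, 138.5, 125.6 and 145.2 CPM in control. The DKO libraries were at 173.3, 164.6, 163.3, 166.5 and 181.7 CPM. Every DKO library lay above every control, as for Hdac1. Its log2 fold change was 0.27 ± 0.08 (SE), and edgeR gave an adjusted p of 0.11. Rcor3, of the CoREST family, was at 13.3 ± 1.09 and 17.1 ± 1.5 CPM (log2 fold change 0.36, adjusted p 0.114, edgeR).

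Of 26 tested further readers of acetyl-lysine, 1 was higher and 3 lower at an unadjusted p under 0.05. This share was 15.4%, beside 16% of all genes tested, and the list's median log2 fold change was 0.02. Sp100, an interferon-inducible nuclear body protein, was at 1949 ± 18.6 CPM in control and 1676 ± 51.9 in DKO. Its log2 fold change was -0.22 ± 0.06 (SE), and its adjusted p of 0.084 by edgeR was the lowest of the 4 lists. Its relative Sp110 was at 165 ± 10.9 and 140 ± 6.14 CPM (log2 fold change -0.23, adjusted p 0.136, edgeR). Neither overlapped between groups. In this list 3 of 26 genes (11.5%) did not overlap, beside 8.71% of all genes tested.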

How the data were processed

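Each library has a deposited file of counts per gene, whole numbers that the authors did not normalise. Per the submitters' processing notes, Trim Galore 0.6.0, STAR 2.7.8a and mm10 were used; the annotation is not given in the sources used here. Per the labels' protocols, libraries were made with SMART-Seq v4 and Nextera Flex. The unstranded column was used, since the first strand held 49.9 to 50.1%. It omits reads where genes on opposite strands overlap. Not used were lines without a gene: 10.3 to 16.7% unmapped, 5.8 to 6.79% multimapping, 4.01 to 5.2% outside features and 4.97 to 5.31% ambiguous. GENCODE M21 (GRCm38) gave symbols, positions and exon lengths for 55230 of 55471 identifiers, matched without their version.

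The labels set the groups. The fit was a robust quasi-likelihood F-test in edgeR 4.0.16 (R 4.3.3) with TMM factors of 0.987 to 1.03 and filterByExpr (minimum count 10, total 15). A gene was called at a Benjamini-Hochberg adjusted p under 0.05, over 14918 genes. Python 3.11.15 (numpy 2.4.6; pandas 2.3.3; scipy 1.17.1) computed CPM and, from union exon length, RPKM; matplotlib 3.10.9 drew the figures. Intervals are 95%. Tried as alternatives were the size factors and the Wald test of DESeq2 1.42.0, voom with quality weights in limma 3.58.1, no filter, a filter of 1 CPM in 4 libraries, the strand sum, a replicate block, 1 surrogate variable from sva 3.50.0, and fewer libraries. Removal of a length trend (lowess span 0.3), a fit of replicates 1 to 4 with no block, and marker and class sums without control 1 were added after the data were seen. Same-group libraries all differed by chi-square tests, so none was counted as a duplicate.

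The members and lists were chosen with earlier results of these data known. Named were all members, both targeted genes and, of each other list, every gene past the threshold or otherwise the 2 with the smallest p. The tests were tried on simulated counts first. There 16.7% of the calls by DESeq2's Wald test were false, beside 4.67% for edgeR and 3.88% for limma-voom. Of the genes given a 1.5-fold difference there, edgeR recovered 32%, DESeq2's Wald test 38% and limma-voom 30%. For a 2-fold difference the values were 70%, 77% and 69%.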

Additional observations from a re-analysis of the deposited data

Results flagged for a closer look

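Within each group, a library was set apart where its gap to the nearest other library was large for the range of the group (Dixon's criterion), which chance gives in about 1 in 20 groups. Of 82 groups of values tested over the members, 5 had such a library, and 2 of the 5 were control 1. Acly was at 278 CPM in control replicate 1, with the other controls between 444 and 470. Brpf1 was at 61.5 CPM in control replicate 1, with the others between 108 and 112. Kat2a was at 64.8 CPM in DKO replicate 4, with the others between 71.2 and 72.9. Crat was at 14.5 CPM in DKO replicate 5, with the others between 9.51 and 10.8. Hdac11 was at 0.633 CPM in control replicate 4, with the others between 0.354 and 0.392, from 36 counts against 16 to 21.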

How the results depend on the processing

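Of the 20 alternatives run, 1 gave a member past the adjusted threshold: with 1 surrogate variable Acss2 was called, so the count of members was 1 against 0. Leaving out each library in turn gave 0 members. The number of members at an unadjusted p under 0.05, which was 5, was 8 under limma-voom (19.5%, beside 21.6% of all genes in that fit), 10 with 1 surrogate variable (24.4% beside 22.9%), 9 with the length trend removed (22% beside 18.0%), 1 over replicates 1 to 4 with no block (2.44% beside 13.0%), and 1 to 8 when 1 library was left out (2.44 to 19.5% beside 12.5 to 20%); it was 8 without control 1, 2 without DKO 1, 1 without DKO 2, 2 without DKO 3 and 1 without DKO 5. Members with no overlap of CPM, 3 in all, were 2 with DESeq2 size factors and with the strand sum, where Acss2 overlapped, 3 to 7 when 1 library was left out (beside 9.54 to 14.5% of all genes tested) and 7 without control replicates 1 and 3 together, where 22% of all genes tested did not overlap. Over all genes, 422 were called, against 1038 by DESeq2's Wald test, 996 by limma-voom, 1148 with 1 surrogate variable, 228 over replicates 1 to 4 with no block and 179 to 749 when 1 library was left out. In the DESeq2 test Hdac11 got no adjusted p.

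Same-numbered replicates did not deviate together (correlations -0.0609, 0.00487, -0.0136 and -0.0857). Differently numbered ones gave -0.0865 to 0.148. The labels state no pairing, and so few correlations cannot settle whether the numbers pair the samples. With the replicate number as a block over replicates 1 to 4, 63 genes were called, with 0 members and 10.7% of all genes at an unadjusted p under 0.05, and the log2 fold change of Kat6b was 0.04 against -0.04.

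The direction held for 24 of the 41 members in every alternative that gave a value, which excepts Hdac11 under the filter of 1 CPM in 4 libraries. For the other 17 the log2 fold change was at most 0.22 in size to begin with and changed sign somewhere. It changed sign under limma-voom for Acly (-0.05), Crat (-0.04), Ep300 (-0.04), Kat5 (0.09), Hat1 (0.07), Hdac2 (0.04) and Sirt6 (-0.05). It did so with 1 surrogate variable for Acly (-0.03), Crat (-0.02), Ep300 (-0.01), Kat6a (-0.03), Hat1 (0.07), Hdac2 (0.0002) and Hdac3 (0.01). It did so without control replicates 1 and 3 together for Acly (-0.11), Crat (-0.22), Ep300 (-0.004), Kat5 (0.003), Kat6b (0.03), Hat1 (0.11), Hdac2 (0.11), Sirt2 (-0.01) and Sirt6 (-0.11). It did so over replicates 1 to 4 with no block for Crat (-0.05) and Kat6b (0.02). It did so with the filter of 1 CPM in 4 libraries for Kat6a (-0.01). It did so with the length trend removed for Kat6a (-0.07). When 1 library was left out, values ran across 0 for Acly (-0.09 to 0.14), Acss1 (-0.14 to 0.003), Crat (-0.11 to 0.32), Ep300 (-0.11 to 0.25), Kat5 (-0.06 to 0.06), Kat6a (-0.05 to 0.12), Kat6b (-0.15 to 0.05), Kat8 (-0.005 to 0.08), Hat1 (-0.16 to 0.11), Ncoa1 (-0.02 to 0.37), Hdac2 (-0.09 to 0.01), Hdac3 (-0.05 to 0.02), Sirt1 (-0.17 to 0.06), Sirt3 (-0.07 to 0.05), Sirt6 (-0.02 to 0.13) and Brd2 (-0.02 to 0.32). The cause of these shifts was not tested. Depth was lowest for Hdac11, at 10 to 36 counts a library, and for Hdac9, below the filter.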
